A study of Mus musculus with 12 samples.

Results

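The replication-dependent histone genes encode the linker histones and the core histones H2A, H2B, H3 and H4 that package newly copied DNA. They were taken as the rows of the count table whose Entrez gene ID belongs to a protein-coding mouse gene with a clustered histone symbol (H1f1 to H1f6, H2ac, H2bc, H3c and H4c followed by a number, or an older Hist1h to Hist4h name). Of 27179 gene IDs, 67 met the rule: 63 by the current symbol and 4 by the older name alone (H4f16, H2bu2, H2aw and H4bc24). They comprise 6 H1, 18 H2A, 18 H2B, 12 H3 and 13 H4 genes. On mm10, 54 lie in the chromosome 13 cluster between 21715711 and 23934913, 10 in the chromosome 3 cluster between 96219885 and 96270192, 2 on chromosome 11 and 1 on chromosome 6.

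The libraries were 12 RNA sequencing libraries of polyA RNA from sorted C57BL/6 B cells, in 6 groups of 2 pools of mice. All mice were immunised with the hapten-carrier antigen NP-KLH in alum. Germinal centre (GC) B cells were taken at day 12 from Myb fl/fl mice without cre (Myb control, pools of 3 and 2 mice) and from Myb fl/fl CD23-cre T/+ mice (Myb knockout, 2 and 3 mice). Plasmablasts (PB) of the same genotypes were taken 5 days after a secondary boost with NP-KLH in PBS (control, 6 and 7 mice, and knockout, 5 and 4 mice). GC B cells at day 7 came from AID-cre T/+ mice (Moz control, 6 and 5 mice) and from Moz fl/fl AID-cre T/+ mice (Moz knockout, 6 and 8 mice). CD23-cre acts in mature B cells, and AID-cre in cells that have switched on AID, the enzyme of antibody gene mutation. The Myb control carries no cre, so cre and the loss of Myb cannot be told apart, whereas both Moz groups carry AID-cre. A pool is 1 sample, and n = 2 pools in every group.

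Most clustered histone genes are transcribed in S phase and lack introns. Their transcripts normally end without a polyA tail just after a short stem-loop, which is bound by the protein SLBP, and transcripts that are instead cut farther downstream and polyadenylated have been described in differentiated cells. GC B cells divide rapidly, whereas plasmablasts are antibody-secreting cells on the way to leaving the cell cycle. In polyA RNA, levels describe the polyadenylated transcripts plus whatever tailless RNA was carried along, and these libraries alone do not separate them.

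The stem-loop was searched in GENCODE M21 transcripts (mm10) as a 6-base stem that starts with GG, a 4-base loop that starts with TT and ends with C or T, and the reverse complement of the stem, at most 150 bases after the stop codon. It was found in 38 of the 67 members. Some members without a match, such as H2bc15, H2bc18 and H4c12, have a transcript no longer than the coding sequence. No stem-loop could be found there. The sites below are shown because they belong to members that differed between plasmablasts and GC B cells. The first 4 belong to genes that were higher in plasmablasts of at least 1 genotype, and the others to genes that were lower. Each is given 5′ to 3′ on the transcript strand, in DNA letters, with the 16 bases of stem, loop and stem in capitals.
H1f2: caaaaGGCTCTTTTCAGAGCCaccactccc
H2aw: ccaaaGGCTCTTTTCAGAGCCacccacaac
H3c14: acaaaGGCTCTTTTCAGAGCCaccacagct
H2ac18: aaaaaGGCTCTTTTCAGAGCCacccactga
H1f3: caaacGGCTCTTTTCAGAGCCacccacaac
H2bc6: ccaaaGGCTCTTTTCAGAGCCacccaacag
H4c9: ttaaaGGCCCTTTTTAGGGCCaccacaaaa
H4c4: ccaaaGGCCCTTTTCAGGGCCactaccttc
H4c6: tcaaaGGCCCTTTTCAGGGCCacccacttt
H4c11: ctaaaGGTCCTTTTCAGGACCaccacatct
The letters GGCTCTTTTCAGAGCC occurred in 26 members, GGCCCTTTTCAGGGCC in 7, and the other 3 forms in 1 or 2 members each. The 4 higher members shown carry the same 16 letters as the lower members H1f3 and H2bc6, and the H4 genes carry other forms. What lay downstream differed more: the GENCODE transcript ran on for 840 bases after the stem-loop in H1f2, 1643 in H2aw and 1167 in H3c14, each with 1 AATAAA polyA signal after it, but for only 35 bases in H2ac18 and 33 in H4c6, with none. Neither feature was restricted to higher members: the transcripts of H2bc6, H1f3 and H4c11 ran on for 1861, 4884 and 385 bases, with 2, 7 and 2 such signals. H2bc4, also higher in plasmablasts, had no match in its transcripts.

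The length over which the authors counted each gene shows how much of the transcript end the counted model holds. For 32 members the counted length equals that of the coding sequence alone, so the stem-loop lies outside the counted model. Whether reads reaching from the coding end into it were counted was not tested. A further 20 members had a short counted model, with fewer than 300 bases beyond the coding length, and 15 had a long one, with 300 bases or more. The counted length was 1561 bases for H1f2 (coding length 639), 1990 for H2aw (393) and 1825 for H3c14 (411), against 312 for H4c4 and H4c6, which is their coding length. Levels of members are therefore not all read over the same part of the transcript. Members are also similar in sequence: a median of 75.3% of 50-base windows of a member's coding sequence occurred in another gene, over 50% in 53 members, and all of them in 13. Counts of such genes are uncertain where reads could be split between copies or dropped. For H1f2 only 8.54% of the transcript's windows were shared, for H2bc21 and H1f5 none, and for H3c14 all were, with the overlapping transcript Gm20634.

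Promoters of 62 members were found in the RefSeq table (GRCm38.p6, the same build as mm10), each from 250 bases before to 50 bases after the start. They are shown for a linker gene that was higher in plasmablasts (H1f2), a linker gene that was lower (H1f5), a higher core gene (H2aw) and a lower core gene (H4c4). Capitals mark matches, on either strand, to the TATA box TATAAA, the CCAAT box CCAAT, the octamer ATTTGCAT and the H1 box AAACACA.
H1f2 promoter, chr13:23738557-23738856, plus strand: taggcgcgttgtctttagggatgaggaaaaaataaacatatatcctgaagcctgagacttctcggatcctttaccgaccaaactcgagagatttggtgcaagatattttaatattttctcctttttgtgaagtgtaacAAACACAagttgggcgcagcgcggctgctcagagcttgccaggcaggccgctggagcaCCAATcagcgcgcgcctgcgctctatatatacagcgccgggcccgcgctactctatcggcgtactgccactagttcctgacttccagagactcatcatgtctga
H1f5 promoter, chr13:21780576-21780875, minus strand: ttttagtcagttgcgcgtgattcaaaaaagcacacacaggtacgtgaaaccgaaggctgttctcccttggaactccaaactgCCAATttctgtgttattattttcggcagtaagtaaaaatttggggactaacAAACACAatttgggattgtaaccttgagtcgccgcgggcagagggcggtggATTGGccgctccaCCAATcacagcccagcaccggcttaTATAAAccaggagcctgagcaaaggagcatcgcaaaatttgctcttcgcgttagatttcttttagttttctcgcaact
H2aw promoter, chr11:58954435-58954734, plus strand: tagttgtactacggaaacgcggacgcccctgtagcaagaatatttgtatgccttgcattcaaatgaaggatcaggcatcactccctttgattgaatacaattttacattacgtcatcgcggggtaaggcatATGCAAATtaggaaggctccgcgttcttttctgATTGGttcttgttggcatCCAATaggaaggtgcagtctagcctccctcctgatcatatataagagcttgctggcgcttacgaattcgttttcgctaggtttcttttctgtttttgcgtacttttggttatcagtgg
H4c4 promoter, chr13:23581318-23581617, plus strand: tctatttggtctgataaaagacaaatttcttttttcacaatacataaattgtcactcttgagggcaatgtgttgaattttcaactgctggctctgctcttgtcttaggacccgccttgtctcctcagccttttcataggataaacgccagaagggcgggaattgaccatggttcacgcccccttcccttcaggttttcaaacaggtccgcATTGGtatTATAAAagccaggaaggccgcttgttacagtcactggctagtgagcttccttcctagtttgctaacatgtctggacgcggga
TATAAA occurred in 56.5% of member promoters and in 13.6% of all 32851 promoters of the same length. CCAAT occurred in 85.5% against 37.4%, in every member promoter of classes H1, H2A, H2B and H3 and in 3 of 12 H4 promoters. The octamer, a site of Oct factors, occurred in 21.0% against 1.74%, in 7 H2A and 6 H2B promoters and no other class. AAACACA occurred in 14.5% against 7.18%, with 5 of the 6 H1 promoters among them. H1f2 and H1f5 both held CCAAT and AAACACA, and only H1f5 held TATAAA. Only exact letters were searched, so variants such as TATATA, which the H1f2 and H2aw promoters hold, were not counted. A match is a description of the letters, not of binding.

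Members made up a small part of each library. The 12 libraries held 8285934 to 24801297 counts, of which 799 to 2443 fell on members, 15756 in all. GC libraries had counts for 56 to 60 of the 67 members, plasmablast libraries for 36 to 44. H1f2 alone held 33.1% of all member counts and the top 6 members 70.0%. At the other end 45 members had fewer than 100 counts over all libraries and 4 had none (H2ac24, H2ac10, H2bc1 and H2ac1). The edgeR filter on low counts kept 43 members, and the other 24, with at most 51 counts each, were not tested. A member low in every group was thus left out, and every count of called members below is over the 43, not over the family.

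Immunoglobulin transcripts took 65.0 to 70.0% of plasmablast counts and 1.59 to 9.16% of GC counts. Levels are therefore given as CPM, counts relative to library size after TMM scaling, which aligns the bulk of the other genes. The labels were checked against cell type markers: plasmablast markers summed to 111000 to 151000 CPM in control plasmablasts against 1440 to 2220 in control GC B cells, and GC markers to 94.5 to 111 against 1890 to 2230. No targeted gene was called between genotypes (edgeR adjusted p = 1 in each comparison). Myb was 14 and 11.5 CPM in control and 13.0 and 11.6 in knockout GC pools, which overlap. In plasmablasts it was 4.13 and 4.64 CPM in control and 3.11 and 3.10 in knockout pools, which do not. Kat6a, which encodes MOZ, was 82.0 and 73.3 CPM without the floxed Moz allele and 66.4 and 93.6 with it. Reads were summed along each gene with no deleted exon singled out, and the levels are therefore no check of the labels. Nothing in the labels says whether the mice of 1 group's pools were handled separately beyond their experiment dates, so p-values measure the spread between pools.

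Most tested members had lower estimates in plasmablasts than in GC B cells, while H1f2, the most abundant member, was higher. Summed over all 67 members, the level was 64.45 and 64.39 CPM in the Myb control GC pools and 106 and 158 in the control plasmablast pools. In the Myb knockout the sums were 55.2 and 69.5 CPM in GC and 135 and 188 in plasmablasts. Without H1f2 the group means were 55.4 and 54.2 CPM in control and knockout GC B cells against 46.8 and 50.5 in plasmablasts. The pools of these sums overlapped between the cell types in both genotypes. H1f2 made up 11.5 to 20.7% of member counts in GC libraries and 64.2 to 70.2% in plasmablast libraries. Members counted over coding sequence only summed to 13.9 ± 3.41 CPM in control GC B cells and 3.45 ± 0.44 in control plasmablasts (SD, n = 2 pools), with no overlap between pools. The sum of the H2A class was higher in plasmablasts, at 14.5 and 22.8 against 8.45 and 8.87 CPM in control mice and 11.8 and 19.96 against 8.35 and 10.3 in the knockout. H2aw alone held 11.76 and 19.45 CPM of the control plasmablast sums and 5.03 and 6.29 of the control GC sums. Relative to all counts the H2A sum was lower in plasmablasts, at 6.54 and 9.05 against 13.7 and 13.3 in control mice. In the knockout it was 4.78 and 7.82 against 14.45 and 16.2. The sum over all members depends on its denominator: relative to all counts it was lower in plasmablasts, in the same unit (47.6 to 73.5 against 95.55 to 109 in the Myb GC pools), and relative to counts outside immunoglobulin genes it was higher (136 to 234 against 98.2 to 113).

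**Figure D1:**
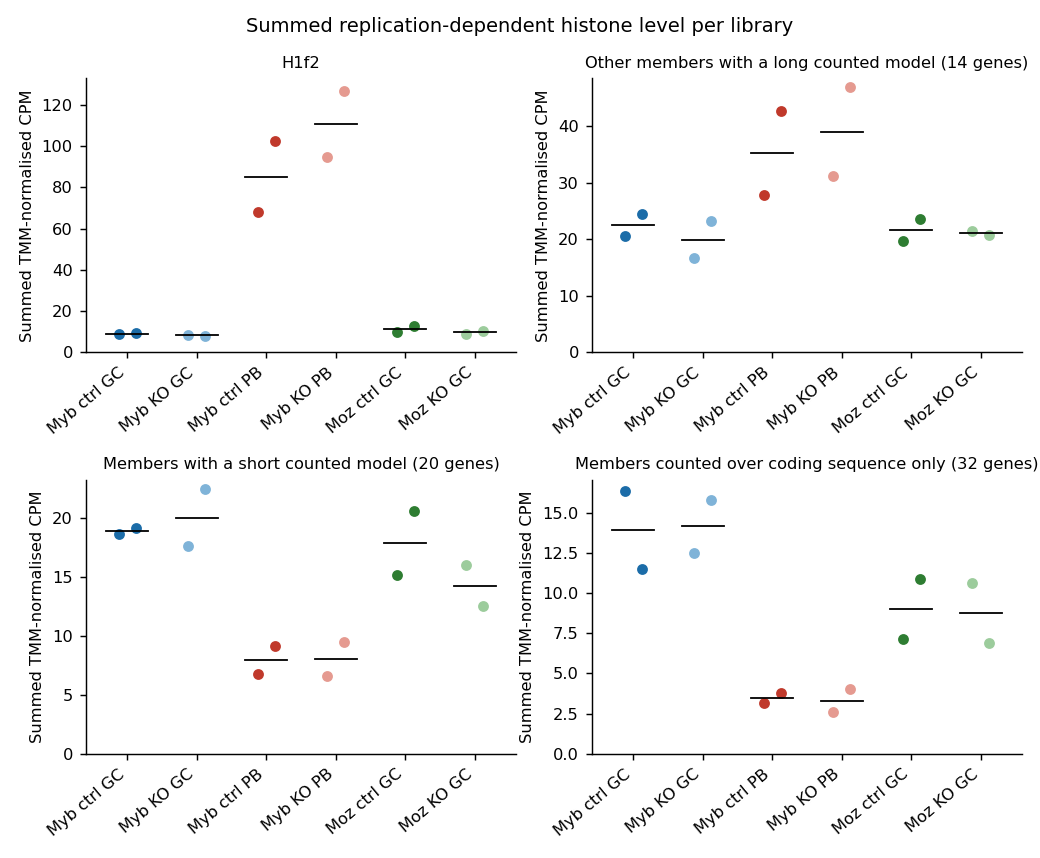
Summed TMM-normalised CPM (y axis, linear from 0) of member genes in each library, by group (x axis, ctrl for control and KO for knockout). Points are single libraries and lines the mean of 2. H1f2 sits at 68.0 to 127 in plasmablasts against 8.01 to 12.9 in GC B cells, while the 32 members counted over coding sequence only sit at 2.60 to 4.02 against 6.91 to 16.3.

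The comparison of plasmablasts with GC B cells asks how the cell types differ within a genotype. They share no experiment date. The GC B cells were taken at day 12 without a boost, and the plasmablasts 5 days after a secondary boost in PBS. Effects of date, immunisation, day and cell type cannot be told apart here. In control mice 5 of the 43 tested members rose in plasmablasts and 15 fell (edgeR quasi-likelihood test, Benjamini-Hochberg adjusted p under 0.05). That is 46.5% of tested members, beside 53.2% of all 13131 genes tested, so the share of members called was no larger than the background. Of tested members 11.6% rose, against 25% of all genes, and 34.9% fell, against 28.1%. Estimates lay below 0 for 34 of the 43 members in control and 37 in knockout mice. The median log2 fold change of members in control mice was -1.65 (-1.39 with 5 genes that had no count in plasmablasts set at their bound), against -0.17 over all genes. In Myb knockout mice 4 rose and 14 fell (41.9% of members beside 51.6% of all genes, with 24.4% of all genes higher and 27.2% lower), with a median of -1.67 (-1.33 with bounds) against -0.17. The same 4 genes rose in both genotypes, 80.0% of the control list and 100% of the knockout list, and 10 genes fell in both, 66.7% and 71.4% of the lists. For all genes these shares were 89.1 and 91.5% of higher and 85.7 and 88.8% of lower calls.

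The linker histone gene H1f2, which encodes H1.2, a linker histone found in many cell types, had the largest counts and the strongest support. Its level was 8.73 and 9.27 CPM in Myb control GC pools, 8.35 and 8.01 in Myb knockout GC pools, 9.68 and 12.9 in day 7 pools with Moz, and 9.05 and 10.5 in those without. In plasmablasts it was 68.0 and 102 CPM in control and 95.0 and 127 in knockout pools. Every plasmablast pool thus lay above every GC pool, with no overlap. The log2 fold change was 3.24 (SE 0.26, edgeR adjusted p = 1.35e-06) in control and 3.76 (SE 0.27, adjusted p = 7.32e-07) in knockout mice. It was the 1 member that rose in both genotypes under every alternative run, library totals alone included, with log2 values of 1.34 to 3.98.

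The 3 other members that rose in both genotypes were core histone genes with long counted models. H3c14, 1 of the chromosome 3 H3 genes, was at 0.489 and 0.242 CPM in control and 0.522 and 0.479 in knockout GC pools, and at 2.33 and 4.77 and at 4.28 and 7.00 CPM in the plasmablast pools. Its log2 fold changes were 3.21 (SE 0.60, edgeR adjusted p = 0.000785) and 3.48 (SE 0.55, adjusted p = 0.000275), with the caution that its whole transcript is shared with Gm20634. H2bc4, an H2B gene whose locus extends over chr13:23684199-23692480, rose from 2.58 and 4.11 CPM to 8.71 and 13.9 in control mice. In knockout mice it rose from 2.09 and 3.56 to 13.2 and 18.1 CPM, and neither comparison overlapped. Its log2 fold changes were 1.75 (SE 0.40, edgeR adjusted p = 0.003) and 2.48 (SE 0.40, adjusted p = 0.000304). Other genes share 97.6% of H2bc4 coding windows and 30.1% of its transcript windows. H2aw, the H2A gene of the small chromosome 11 cluster, rose from 5.03 and 6.29 CPM to 11.8 and 19.4 in control mice and from 5.10 and 6.43 to 9.99 and 15.7 in knockout mice. These log2 fold changes, 1.46 (SE 0.31, edgeR adjusted p = 0.00192) and 1.16 (SE 0.31, adjusted p = 0.00792), were the smallest among the 4. The knockout call of H2aw was lost without GC pool 1 (adjusted p = 0.0562) or plasmablast pool 2 (adjusted p = 0.101). Of H2aw transcript windows 31.5% are shared with Trim17, which overlaps it and had 0 to 2 counts in every library, 0 in each plasmablast library. The shared windows include all those of the H2aw coding sequence.

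H2ac18, an H2A gene next to H3c14 on chromosome 3, was called in control mice and missed the limit in the knockout. It had 0.140 and 0.161 CPM in control GC and 0.808 and 1.88 in control plasmablast pools (24 counts against 4, log2 3.07, SE 1.08, edgeR adjusted p = 0.031). Knockout pools had 0.0580 and 0.411 CPM in GC and 0.26 and 2.18 in plasmablasts, which overlap (log2 2.43, SE 0.995, adjusted p = 0.0599). The knockout difference did pass with DESeq2 (adjusted p = 0.0465), with immunoglobulin genes left out (0.0477), with no low-count filter (0.0151), and without knockout GC pool 2 (0.0342) or plasmablast pool 1 (0.0144). The difference between genotypes was itself far from the limit (edgeR adjusted p = 1). The control call was lost on leaving out either control GC pool or plasmablast pool 2, with adjusted p up to 0.165, and 89.4% of its transcript windows are shared with other genes.

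**Figure D2:**
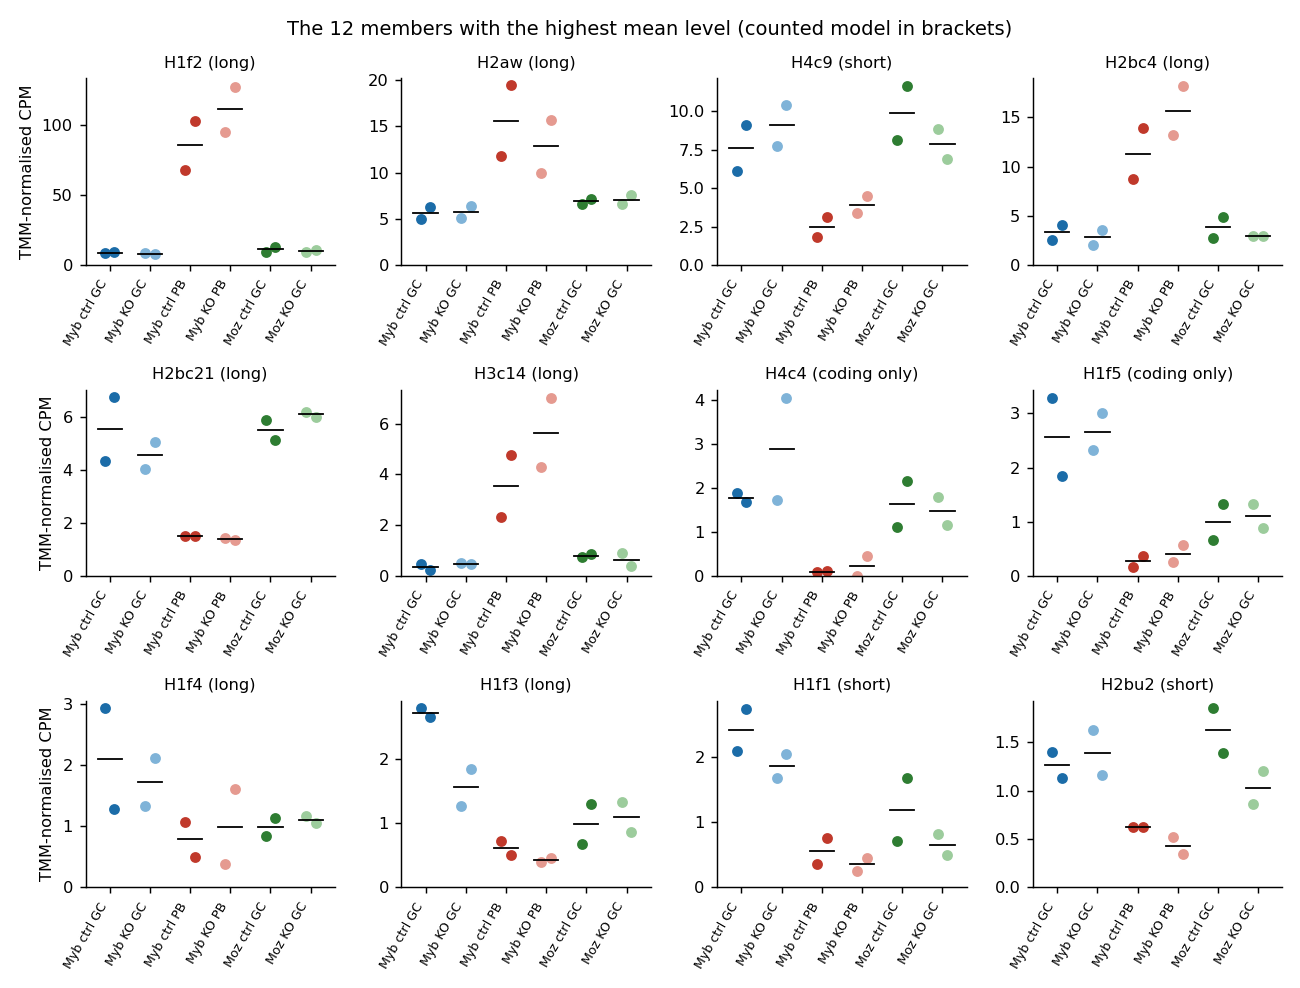
TMM-normalised CPM (y axes, linear from 0) of the 12 members with the highest mean over all libraries, by group (x axes). Points are single libraries and lines the mean of 2. H1f2, H2aw, H2bc4 and H3c14 are high in all 4 plasmablast libraries, and H4c9, H2bc21, H4c4, H1f5, H1f3 and H1f1 lie below the Myb GC libraries of the same genotype there. With library totals alone H2aw turns lower in both genotypes and H2bc4 in control mice.

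The other somatic linker histone genes did not follow H1f2. H1f5, counted over its coding sequence, fell from 3.28 and 1.85 CPM to 0.180 and 0.376 in control mice and from 2.32 and 3.01 to 0.26 and 0.574 in knockout mice. Its log2 fold changes were -3.25 (SE 0.65, edgeR adjusted p = 0.00135) and -2.63 (SE 0.61, adjusted p = 0.00372). H1f3 was 2.79 and 2.66 CPM in control and 1.27 and 1.85 in knockout GC pools, against 0.718 and 0.502 and 0.389 and 0.459 in plasmablasts (log2 -2.12 and -1.85, edgeR adjusted p = 0.00409 and 0.017). H1f1 was 2.10 and 2.74 CPM and 1.68 and 2.05 in GC pools, against 0.359 and 0.753 and 0.26 and 0.459 in plasmablasts (log2 -2.16 and -2.33, adjusted p = 0.00972 and 0.0109). Plasmablast pools of these 3 genes lay below GC pools of their genotype without overlap. The H1f1 calls were lost without plasmablast pool 1 (edgeR adjusted p = 0.0961 in control and 0.0781 in knockout mice), and the knockout call of H1f3 without GC pool 2 or either plasmablast pool (adjusted p up to 0.0875). H1f4 was not called, at 2.93, 1.29, 1.33 and 2.12 CPM in the Myb GC pools and 1.08, 0.502, 0.389 and 1.61 in plasmablasts (log2 -1.37 in control mice, edgeR adjusted p = 0.0923). It was called lower in control mice under the block by number (adjusted p = 0.0414), with no low-count filter (0.0298) and without GC pool 2 (0.0483), and in both genotypes with library totals alone. H1f6, the testis linker gene, was too low to test. As a class, 1 of 5 tested H1 genes rose and 3 fell in each genotype.

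No H4 gene rose in either genotype. Of 12 tested H4 genes 5 fell in control and 4 in knockout plasmablasts. H4c9 held the most H4 counts, with 6.08 and 9.11 CPM in control and 7.71 and 10.4 in knockout GC pools, against 1.80 and 3.14 and 3.37 and 4.47 in plasmablasts. Its log2 fold changes were -1.65 (SE 0.37, edgeR adjusted p = 0.00286) and -1.20 (SE 0.35, adjusted p = 0.0139), the knockout call being lost without GC pool 2 (adjusted p = 0.0774) or plasmablast pool 1 (adjusted p = 0.102). H4c4 was 1.89 and 1.69 CPM in control and 1.74 and 4.04 in knockout GC pools, against 0.0898 and 0.126 and 0 and 0.459 in plasmablasts. In counts that is 2 against 48 in control mice, a ratio of 17.2 (95% counting interval 4.50 to 146), and 4 against 89 in knockout mice (11.5, 4.33 to 43). H4c6 had no count in any of the 4 plasmablast libraries. Against a floor of 3 counts over the group it was 2.86-fold lower in control mice (12 counts in GC). In knockout mice (19 counts) it was 3.26-fold lower. Its 95% counting intervals reached down to 1.99-fold and 2.41-fold. Its GC levels were 0.279 and 0.645 CPM in control and 0.753 and 0.411 in knockout pools.

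Among H2B genes 1 rose and 5 fell of 12 tested in control mice, and 1 rose and 4 fell in the knockout. H2bc21, a chromosome 3 gene with a long counted model, was 4.33 and 6.77 CPM in control and 4.06 and 5.07 in knockout GC pools, against 1.53, 1.51, 1.43 and 1.38 in plasmablasts. The log2 fold changes were -1.86 (SE 0.32, edgeR adjusted p = 0.000503) and -1.70 (SE 0.33, adjusted p = 0.00125), kept under every alternative run. H2bc15, counted over coding sequence, had 0.628 and 0.564 CPM in control GC pools and no count in control plasmablasts (16 counts against 0, at least 3.81-fold lower, edgeR adjusted p = 0.00446). In the knockout it had 0.174 and 0.137 CPM in GC and also none in plasmablasts, and was not called. H2bu2, the H2B gene of the chromosome 11 cluster, was 1.40 and 1.13 CPM in control and 1.62 and 1.16 in knockout GC pools. In plasmablasts it was 0.628 and 0.627 and 0.519 and 0.344 CPM, and only the knockout difference passed (log2 -1.69, SE 0.51, adjusted p = 0.0164). H2bc6 fell in both genotypes (5 counts against 32 and 3 against 36), as did H2bc18 (4 against 23 and 1 against 41), and H2bc3 in control mice (1 against 37, ratio 26.5, interval 4.46 to 1070). The control call of H2bc18 (edgeR adjusted p = 0.0479) was lost under 8 of 11 alternatives, 4 of them without leaving out a library. The knockout call of H2bu2 was lost under 5 of 11, 3 of them without leaving out a library.

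The H3 and H2A classes held few tested genes. H3c8 had 0.628 and 0.806 CPM in control and 0.406 and 1.16 in knockout GC pools and a single count in all 4 plasmablast libraries. It was at least 4.53-fold lower in control (0 counts against 19, edgeR adjusted p = 0.00632). The knockout ratio was 12.4 (1 against 24, interval 2.02 to 509, adjusted p = 0.0219). H3c6 fell in control mice (3 counts against 31, ratio 7.39, interval 2.30 to 37.8, adjusted p = 0.00458). H3c3 fell in the knockout, from 0.464 and 0.890 CPM to no count (edgeR adjusted p = 0.00415). Against the floor it was 3.61-fold lower, with an interval down to 2.68-fold. It had 0.559 and 0.322 CPM in control GC and 0.0898 and 0.126 in control plasmablast pools. Of 8 tested H2A genes none fell in control mice. In the knockout H2ac13 fell, from 0.406 and 0.411 CPM in GC (13 counts) to none in plasmablasts (edgeR adjusted p = 0.0422). Against the floor it was 2.23-fold lower, with an interval down to 1.57-fold. The call was lost when any 1 of the 4 libraries was left out. With these, H4c1 (0 counts against 11) and H4c11 (0 against 9) fell in control mice and H4c14 (2 against 26) in the knockout. Leaving out 1 library ended the calls of H4c6, H2bc6, H2bc18 (control), H2bu2, H3c6, H3c8 (knockout), H4c1, H4c11 and H4c14, with adjusted p up to 0.189, and without control plasmablast pool 1 the control comparison gave 13 called members in place of 20. For most of these genes a few reads decide the size of the difference, and the counting intervals are wide.

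**Figure D3:**
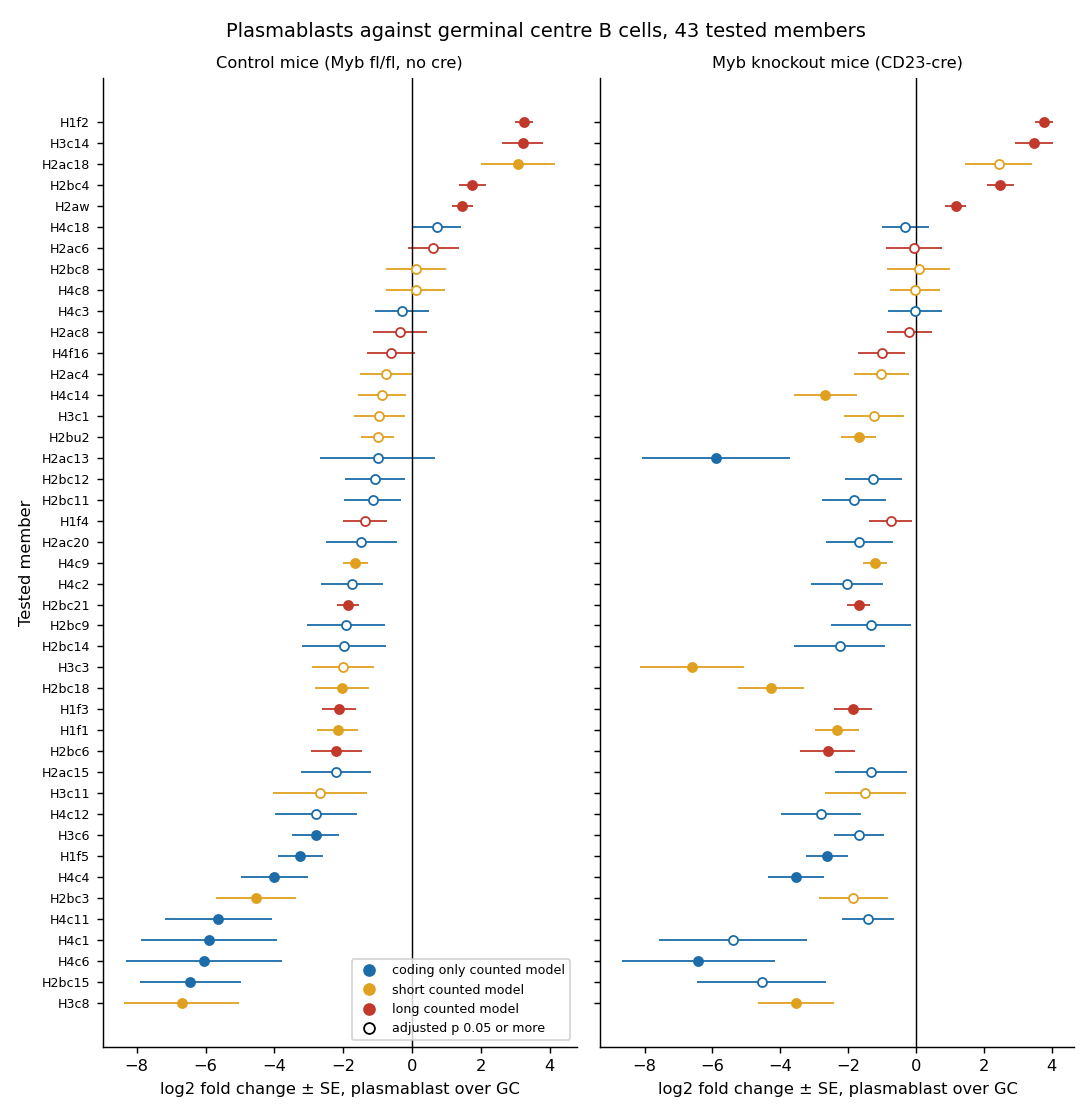
Log2 fold change of plasmablasts over GC B cells with its standard error (x axes) for the 43 tested members (y axis), in control mice on the left and Myb knockout mice on the right. Colour gives the counted model and filled points passed an adjusted p of 0.05. The 4 filled points above 0 in both panels all belong to long counted models, and with library totals alone H2aw turns below 0 in both genotypes and H2bc4 in control mice. Estimates below -5 come from genes with no counts in plasmablasts and are not sizes.

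By counted model, 4 of 11 tested members with a long model rose and 3 fell in each genotype. Of 14 with a short model 1 rose and 5 fell in control mice, and none rose and 7 fell in the knockout. Of 18 counted over coding sequence only none rose, and 7 fell in control and 4 in knockout mice. Among members with the stem-loop match 4 rose and 6 fell of 27 in control mice, and among those without it 1 rose and 9 fell of 16. Having no match does not mean having no stem-loop, since some transcripts, such as those of H2bc15 and H2bc18, end with the coding sequence. Over all genes tested 25% rose and 28.1% fell in control mice, and 24.4% rose and 27.2% fell in the knockout. The same background stands beside the tallies by class above and by gene list below. These tallies describe the 43 tested genes. No difference between the models, or of a model from that background, was tested.

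The direction of H2aw, and of H2bc4 in control mice, depends on the scaling. With library totals alone the median of all genes moved to -2.04 in control and -2.21 in knockout mice. Immunoglobulin transcripts took 65.0 to 70.0% of plasmablast counts, and their part in this shift was not tested. On those totals 1 member rose and 33 fell in control mice, and 2 rose and 38 fell in the knockout. The share of all genes called on those totals is not given here, so these counts are not a result about members. H2aw then turned to -0.44 and -0.89, and H2bc4 to -0.13 in control and 0.44 in knockout mice. H1f2 (1.34 and 1.70) and H3c14 (1.32, edgeR adjusted p = 0.0639, and 1.43, adjusted p = 0.0332) kept their direction, as did H2ac18 in control mice (1.20, adjusted p = 0.32). Relative to the median of all genes they were higher, at 1.60 and 1.32 for H2aw and 1.91 and 2.65 for H2bc4, and H1f2 at 3.38 and 3.91. In bulk RNA, fewer cells of a type and less RNA per cell cannot be told apart.

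Markers of other cells and RNAs without a polyA tail also moved with the cell type. T cell markers summed to 222 to 224 CPM in control plasmablasts against 9.67 to 10.3 in control GC pools, with all 10 markers detected, but Cd28, which plasma cells also express, made up 213 to 218 of it, and Cd3e was at most 0.502. Myeloid markers summed to 363 to 432 against 60.8 to 64.3 CPM, with 8 of 10 detected, mostly Cst3. Csf1r, a macrophage receptor gene, was 38.3 and 9.29 CPM in control and 31.9 and 9.87 in knockout plasmablasts, against 1.37 to 5.85 in the Myb GC pools, and Elane was at 0 throughout. NK and plasmacytoid markers summed to 179 to 303 against 13.5 to 14.2 CPM, nearly all from Bst2, with Ncr1 at 0 in all 4 plasmablast libraries. Erythroid markers summed to 3.01 to 4.31 against 5.66 to 10.8 CPM. The plasmablast pools with more Csf1r (pools 1) were those with less H1f2, H2aw, H2bc4 and H3c14 in each genotype. The summed myeloid markers and the summed NK and plasmacytoid markers ran the other way, being lower in those pools. Csf1r is 1 of the 10 myeloid markers and was named after its values were seen. With 2 pools per genotype the order of pools was not tested. RNAs without a polyA tail, 16 structural RNAs such as Rn7sk and Rpph1, summed to 12.0 to 19.8 CPM in control GC, 6.09 to 7.01 in knockout GC, 2.51 to 4.04 in control and 2.34 to 6.08 in knockout plasmablasts, and 4.55 to 6.27 in the Moz groups. Rn7sk, Rmrp and Rpph1 fell in control mice, where the median log2 of the 4 tested was -2.27. In the knockout none of the 4 was called, with a median of -0.791. A missed call does not show that they did not fall. Members counted over coding sequence only were at 13.9 ± 3.41 and 14.2 ± 2.33 CPM in control and knockout GC. None of the 4 tested tailless RNAs was called between those groups. The part of other cells and of tailless RNA in the member differences was not tested.

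The rest of the machinery of DNA replication was lower in plasmablasts. All 40 tested S phase genes fell in both genotypes (median log2 -3.03 in control and -2.83 in knockout mice), led by Uhrf1 (-5.04), which recruits maintenance DNA methylation, the helicase subunits Mcm5 (-4.79) and Mcm3 (-4.73), and Gins2 (-4.56). All 20 G2 and mitosis genes fell as well (medians -3.79 and -3.43), among them Plk1 (-4.44), Bub1 (-4.28), Ccnb2 (-4.25) and Cenpe (-4.23). Of 22 histone chaperone and deposition genes 20 fell and none rose in each genotype. The subunits of CAF-1, which loads H3 and H4 onto new DNA, were among the lowest (Chaf1b -5.07 and Chaf1a -4.38), with Asf1b at -4.11 and Nap1l1 at -3.63. The 4 members that rose in both genotypes thus moved against every S phase gene on the lists, under TMM. With library totals alone every S phase and mitosis gene was still lower.

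Of 32 tested genes of histone transcript processing 18 fell and 1 rose in each genotype. Slbp, which encodes the stem-loop binding protein, was 114 and 140 CPM in control and 105 and 178 in knockout GC pools, against 23.6 and 26.9 and 22.4 and 30.2 in plasmablasts. It fell by 2.33 on the log2 scale (SE 0.27, edgeR adjusted p = 2.34e-05) in control and by 2.43 (SE 0.27, adjusted p = 1.91e-05) in knockout mice. Ccne2, a cyclin of S phase entry (-3.14), and the Sm ring genes Snrpf (-2.17) and Snrpe (-2.14) fell too, while Wdr33, a subunit that recognises the polyA signal, rose slightly (0.50) and was at -1.38 with library totals alone. Replacement histones, many of which are made outside S phase with polyA tails, fell in 7 of 10 tested genes and rose in 1 in each genotype. The linker variant gene H1f10 fell most, from 78.3 and 72.2 CPM to 0 and 0.502 in control mice, and H2ax fell from 301 and 360 to 12.8 and 13.9 (log2 -4.63, SE 0.38, edgeR adjusted p = 1.49e-06). Cenpa (-3.29) and H2az2 (-2.35) fell as well. H1f0, the linker histone of differentiated cells, rose from 39.5 and 33.4 to 174 and 195 CPM (log2 2.34, SE 0.21, edgeR adjusted p = 2.77e-06) and stayed higher, at 0.45, with library totals alone. H3f3b was counted at only 0.388 to 0.803 CPM in every library and did not pass (log2 0.20, adjusted p = 0.765). Of 11 genes tied to leaving the cell cycle 5 rose and 3 fell in control mice, and 4 rose and 4 fell in the knockout. The inhibitor gene Cdkn1b (2.41) and Rb1 (1.87) rose in control mice, while with library totals alone Cdkn1b was at 0.52 and Rb1 at 0, and at -0.65 in the knockout, and E2f5 (-2.15) and Cdkn2d (-1.91) fell.

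**Figure D4:**
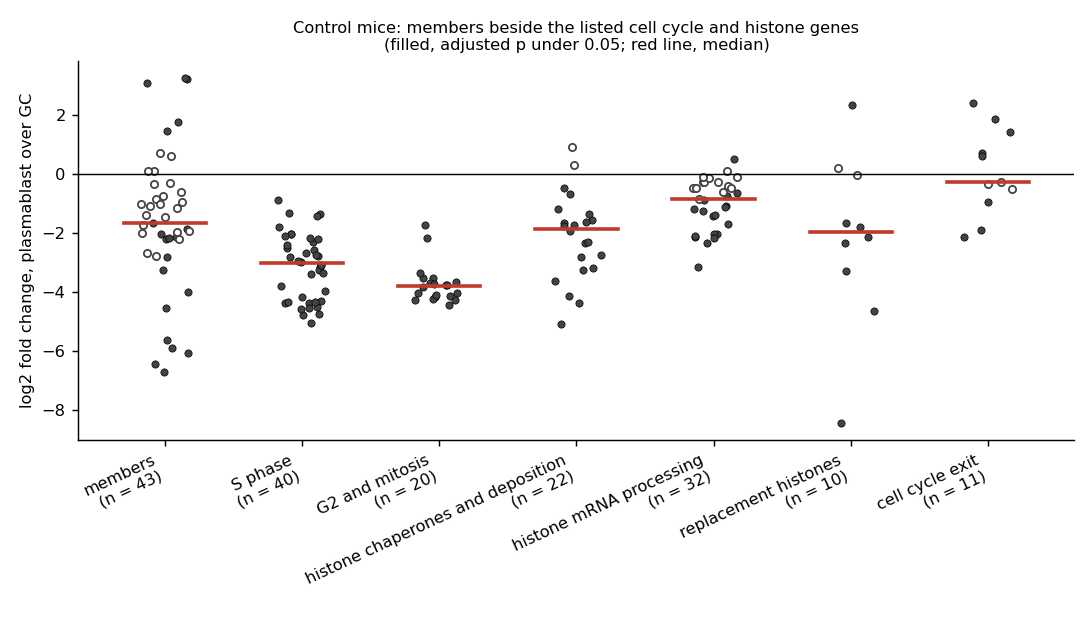
Log2 fold change of plasmablasts over GC B cells in control mice (y axis) for tested members and for tested genes of 6 lists (x axis). Each point is a gene, filled where the adjusted p was under 0.05, and red lines are medians. The members spread from -6.69 to 3.24, while all S phase and G2 and mitosis genes lie below 0.

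The comparisons of knockout with control ask which histone transcripts depend on Myb or MOZ. In none of them did a member pass. In GC B cells without Myb, edgeR called 0 of 43 members, beside 0.259% of all genes (0.0228% lower), DESeq2 also called 0, and 1 member had an unadjusted p under 0.05. That member was H2bc15, at 0.628 and 0.564 CPM in control and 0.174 and 0.137 in knockout pools (log2 -1.89, SE 0.71, edgeR adjusted p = 0.637). In plasmablasts without Myb edgeR and DESeq2 called 0, beside 0.0381% of all genes by edgeR, and the 1 member under an unadjusted 0.05 was H4c11, with no count in control and 0.130 and 0.229 CPM in knockout pools. In GC B cells without MOZ edgeR and DESeq2 called 0, edgeR called 0% of all genes, and no member was under an unadjusted 0.05. The replicate block also gave 0 members called in each of these comparisons.

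Estimates lay on both sides of 0. In Myb GC B cells 21 members were above and 22 below, in Myb plasmablasts 20 above, 20 below and 3 at 0, and in Moz GC B cells 16 and 27, with medians of -0.06, 0 and -0.10 against 0, 0.007 and -0.01 over all genes. For H1f2, the gene with the most counts, the estimates were -0.14 (SE 0.26), 0.38 (SE 0.24) and -0.21 (SE 0.24). For H4c9 they were 0.26 (SE 0.33), 0.70 (SE 0.39) and -0.33 (SE 0.315), and for H2bc4 -0.25 (SE 0.41), 0.48 (SE 0.37) and -0.40 (SE 0.38). Summed over members the level was 62.3 ± 10.1 CPM in knockout against 64.4 ± 0.0424 in control Myb GC B cells, 161 ± 37.0 against 132 ± 36.9 in plasmablasts, and 54.0 ± 4.68 against 59.9 ± 11.6 in Moz GC B cells (SD, n = 2 pools). Pools overlapped in each of these sums on all 3 denominators. A p that misses the limit does not show equal levels, and most members rest on a few counts per pool.

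In the day 7 GC pools the Moz genotypes overlapped for most of the abundant members. H2aw was 6.64 and 7.19 CPM with Moz against 6.597 and 7.55 without, and H2bc21 was 5.90 and 5.13 against 6.21 and 6.01. H4c9 was 8.13 and 11.6 CPM against 8.84 and 6.91, and H2bc4 was 2.80 and 4.93 against 2.93 and 2.96. The genotypes overlapped for H2aw, H4c9 and H2bc4, and for H2bc21 both knockout pools lay above both control pools without a call. H4c4 was 1.11 and 2.17 against 1.81 and 1.17 CPM and H3c14 0.742 and 0.891 against 0.905 and 0.401, with overlap in both. Among linker genes H1f5 was 0.674 and 1.34 CPM in control and 1.34 and 0.894 in knockout pools, H1f4 0.843 and 1.14 against 1.16 and 1.05, H1f3 0.674 and 1.31 against 1.34 and 0.863, and H1f1 0.708 and 1.67 against 0.819 and 0.493. No tested linker gene separated the Moz genotypes by level. H2bu2 (1.855 and 1.39 against 0.862 and 1.20 CPM) and H2bc15 (0.270 and 0.306 against 0.172 and 0.123) were lower in both Moz knockout pools than in both controls, and neither passed. H3c8 was 0.438 and 0.306 against 0.474 and 0.308 CPM, H4c6 0.303 and 0.641 against 0.560 and 0.0925, H3c3 0.270 and 0.390 against 0.474 and 0.401, H2ac18 0.337 and 0.557 against 0.345 and 0.185, and H2ac13 0.101 and 0.167 against 0.0431 and 0.154.

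**Figure D5:**
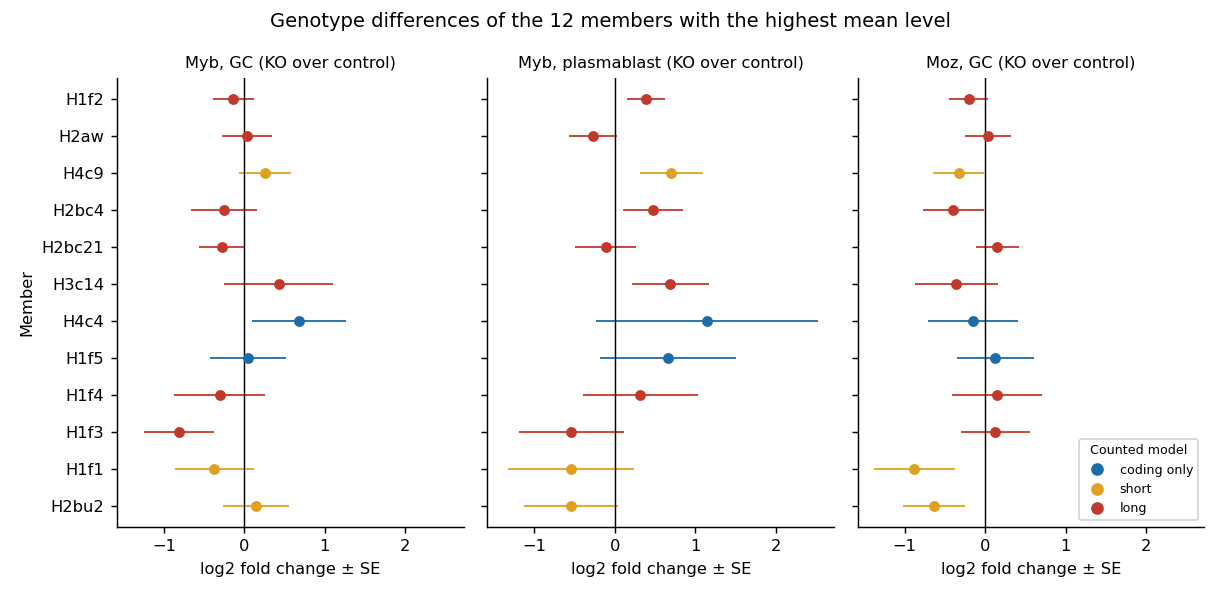
Log2 fold change of knockout over control with its standard error (x axes) for the 12 members with the highest mean level (y axis), in Myb GC B cells, Myb plasmablasts and Moz GC B cells. Colour gives the counted model. Estimates for H1f2 run from -0.21 to 0.38, and no member shown passed an adjusted p of 0.05.

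The Myb effect was also compared between cell types, as the knockout difference in plasmablasts minus that in GC B cells. No member was called by edgeR or DESeq2, none had an unadjusted p under 0.05, and 0.00762% of all genes were called by edgeR. H1f2 differed by 0.52 (SE 0.35) and H2bc4 by 0.73 (SE 0.555). The lists of members called in control and in knockout plasmablasts therefore do not show a genotype difference where they differ.

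Day 7 GC B cells of the Moz control (AID-cre T/+) were set against day 12 GC B cells of the Myb control. Day, cre, floxed alleles and experiment differ together here and cannot be told apart. No member was called by edgeR or DESeq2, beside 1.38% of all genes by edgeR (0.297% lower), and 4 had an unadjusted p under 0.05, all lower at day 7: H1f3, H1f5, H3c6 and H3c1. H1f3 was 0.674 and 1.31 CPM at day 7 against 2.79 and 2.66 at day 12 (log2 -1.44, SE 0.43, edgeR adjusted p = 0.191). H1f5 was 0.674 and 1.34 against 3.28 and 1.85 (log2 -1.34, SE 0.48, adjusted p = 0.359). The median of tested members was -0.415 against 0.02 over all genes, with 28 of 43 estimates below 0, and the tailless RNA Rn7sk was lower at day 7 as well (log2 -2.15, adjusted p = 0.0398). Among plasmablast markers 5 of 10 rose at day 7, Tnfrsf17 (4.03) and Sdc1 (3.88) most. H1f2 was 9.68 and 12.9 CPM at day 7 against 8.73 and 9.27 at day 12, without overlap but not called (log2 0.33, SE 0.25, adjusted p = 1).

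Within a library, members can be ranked only per length of counted model. Over all libraries H1f2 had the highest mean, 25.03 CPM per kb of counted length, followed by H4c9 (12.7), H2bc4 (9.15), H2aw (4.51) and H4c4 (4.35). In the 4 Myb GC libraries the order changed: H4c9 stood first, at 14.1 and 16.9 CPM per kb in control and knockout, and H1f2 was at 5.76 and 5.24. In plasmablasts H1f2 stood first, at 54.6 and 71.1, with H2bc4 at 15.55 and 21.5 and H4c9 at 4.59 and 7.31 CPM per kb. The H1f2 and H2bc4 pools do not overlap in plasmablasts of either genotype, nor do those of H4c9 and H1f2 in Myb GC B cells.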

How the data were processed

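The authors deposited raw counts per gene. Per the submitters' processing notes, featureCounts was used and the build was mm10. Not given in the sources used here are the aligner, whether strand was used, how reads matching several genes were treated, and versions. Counts of all 12 libraries were fitted together as 6 group means with edgeR 4.0.16 (R 4.3.3, robust quasi-likelihood, TMM scaling). filterByExpr (minimum count 10, minimum total 15) kept 13131 genes, p-values were adjusted over them by Benjamini-Hochberg, and calls needed an adjusted p under 0.05. Residual degrees of freedom were 6. Alternatives were DESeq2 1.42.0, its size factors, library totals alone, immunoglobulin genes left out, no filter, the compared groups alone, a replicate block and each library left out. The script was tested on simulated data. Counting intervals (95%, exact) cover counting error only. Floors (3 counts over a group) stand in for a group with no count and leave out the counting error of the other group.

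Members and gene lists were chosen with earlier results of these data known. Values in every library were given for the 12 members with the highest mean level and the 3 called members with the largest change per direction of a comparison, with up to 4 genes per other list (2 for cell type markers). Slbp, H2ax and H3f3b were always included. Other called members, H1f0, Wdr33, Csf1r and members under an unadjusted p of 0.05 were named after their values were seen. Same-numbered knockout and control pools share experiment dates in the labels, and their deviations correlated at 0.600 (Myb GC), 0.453 (Myb PB) and 0.361 (Moz GC). Pools that share only a number correlated at 0.382 (control GC, day 7 and day 12), 0.303 (knockout PB and GC) and 0.247 (control PB and GC).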

Additional observations from a re-analysis of the deposited data

How the results depend on the processing

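With library totals alone 34 members were called in control and 40 in knockout plasmablasts against GC B cells, in place of 20 and 18. The median log2 fold change of all genes was then -2.04 and -2.21, and the share of all genes called is not given here. On that scale H2aw turned to -0.437 (control) and -0.890 (knockout) and H2bc4 to -0.134 (control, log2). The summed level turned from 1.03 and 1.37 to -0.866 and -0.676 (log2) relative to all counts, the denominator that immunoglobulin transcripts fill. Leaving out 1 library gave 13 to 18 called members in control and 12 to 14 in knockout mice, the 13 being without control plasmablast pool 1. Other settings gave 15 to 21 and 15 to 18. Of 399 alternatives over 38 named results, 337 kept the call, 59 lost it (44 on leaving out 1 library) and 3 reversed, and the cause was not tested.

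The replicate block gave 0 called members in each knockout comparison, as without it, and in the Myb effect between cell types. Day 7 and day 12 pools share only a number, as do plasmablast and GC pools. There the block by number gave 16 and 15 called members for control and knockout plasmablasts, and 1 for day 7 against day 12, which was H1f3 (log2 -1.52, edgeR adjusted p = 0.0368). Low counts limit every member but the most abundant.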
